A study of Mus musculus with 6 samples.

Results

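The genes described here are 10 members of the Notch signalling pathway: the ligand genes Dll1 and Jag1, the receptor genes Notch1 to Notch4, the glycosyltransferase gene Lfng and the target genes Hes1, Hes5 and Hey1. They were chosen by gene symbol, and all 10 were found among the 13203 genes of the analysed table. Whole mouse kidneys at stage E17.5 gave total RNA, which was freed of ribosomal RNA and sequenced. The 3 control kidneys carried the alleles Brg1 flx/flx and the 3 mutant kidneys the genotype Six2Cre Brg1flx/flx. Both groups thus carry floxed alleles of Brg1, a chromatin remodelling ATPase encoded by Smarca4, and only the mutant labels name the Cre. Six2Cre acts in nephron progenitors and is inherited by the nephron cells that they form, so stroma, endothelium and collecting duct of a whole kidney are not its direct site of action. Effects of the Cre itself and of the deletion cannot be told apart in this design.

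Notch signalling passes between touching cells: a Delta or Jagged ligand on one cell binds a Notch receptor on its neighbour, the receptor is cut by γ-secretase, and its inner part enters the nucleus and joins the DNA-binding protein RBPJ to switch on Hes and Hey genes. Fringe enzymes such as the product of Lfng add sugars to the receptor and change how well it responds to each ligand. In the mouse kidney, signalling through Notch2 is needed for podocytes and proximal tubules to form from the renal vesicle, while Notch3 is known from vascular smooth muscle and Notch4 from endothelium.

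Values are normalised coverage in kb, the number of sequenced bases over a gene scaled by the authors to a common library total, in units of 1000 scaled bases. Before scaling the libraries held 726 to 1126 Mb in control and 934 to 1209 Mb in mutant kidneys. The libraries are named con1 to con3 and mut1 to mut3, and means are given ± SD with n = 3 kidneys per group. Each fold change is on the log2(value + 1) scale with the standard error (SE) of limma, a linear model with moderated variances fitted to all genes, and a gene was said to rise or fall where its Benjamini-Hochberg adjusted p over all 13203 genes was under 0.05. Smarca4 itself was at 434, 419 and 371 kb in control and 316, 333 and 268 kb in mutant libraries, and fell (log2 fold change -0.42, SE 0.10, limma adjusted p = 0.00481). Genes that mark the kidney were measured, with all 8 listed nephron progenitor genes, all 9 podocyte genes and all 9 proximal tubule genes in the table. Of the other marker lists, 5 of 5 loop and distal tubule genes fell, and 2 of 9 collecting duct genes rose and 3 fell. In addition, 4 of 5 leukocyte genes and 6 of 7 erythroid genes rose. Among all 13203 genes 46.1% passed, with 21.5% rising and 24.6% falling. The 55.6% of collecting duct genes that passed lie near that share. The small RNA genes held 2.67 to 3.33% of coverage in control and 0.614 to 1.19% in mutant libraries.

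The ligand, Fringe and target genes were lower in the mutant kidneys, and the receptor genes Notch2 and Notch3 were higher. Of the 10 genes 6 fell (Dll1, Jag1, Lfng, Hes1, Hes5 and Hey1), 2 rose (Notch2 and Notch3) and 2 did not pass (Notch1 and Notch4). Among all 13203 genes, 46.1% passed the same test, with 24.6% falling and 21.5% rising. The median log2 fold change of the 10 genes was -0.60, against -0.03 over all genes. The counts and the median include Hes5, which is in the table only because its control mean passed the lower limit of the table. The 3 mutant values lay all below the 3 control values in 7 of the 10 genes (29.8% of all genes) and all above them in 2 (26.5% of all genes), so that the groups were apart in 9 of 10, against 56.4% of all genes. An exact two-sided permutation test of 3 against 3 values cannot go below p = 0.1, and each of these 9 genes was at that limit.

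**Figure D1:**
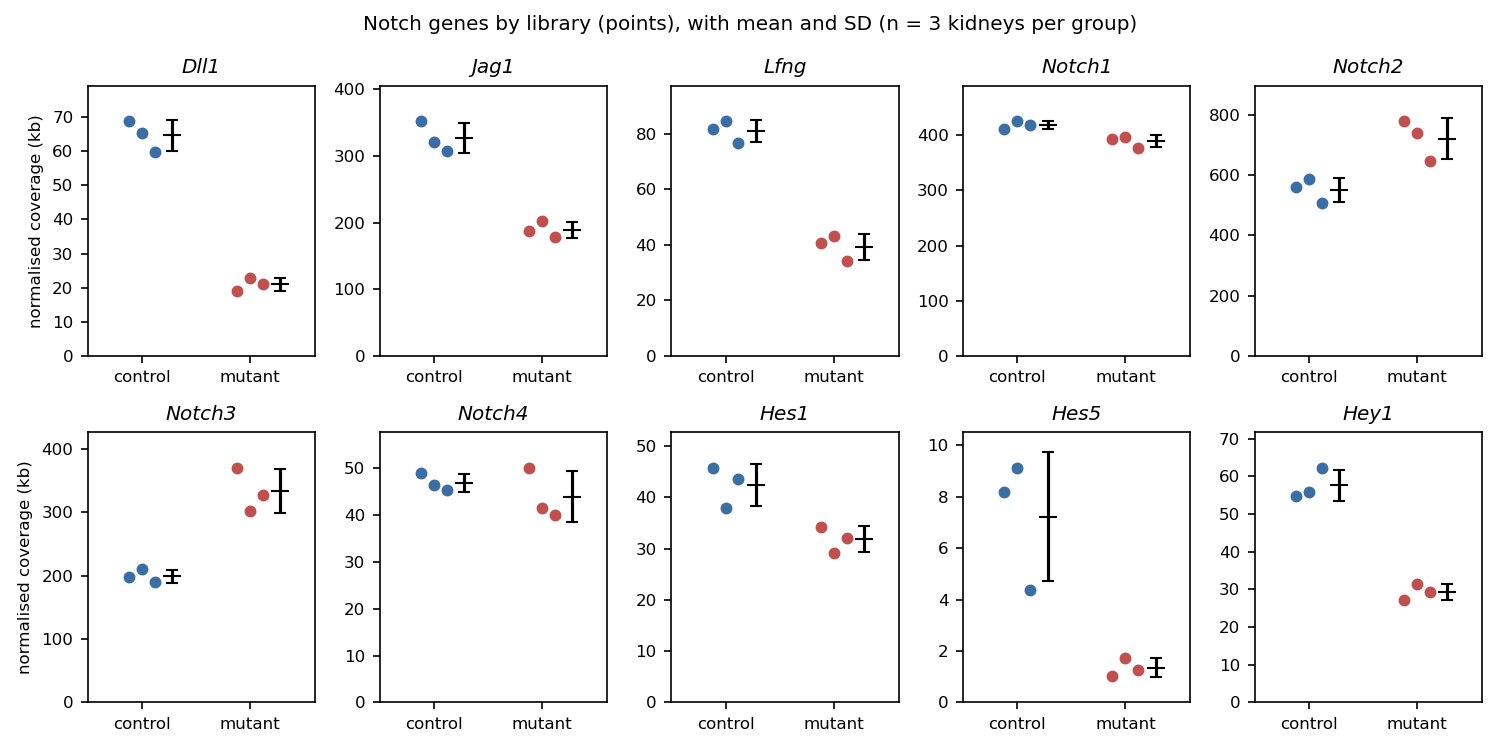
Normalised coverage in kb (y axes start at 0) of the 10 Notch genes in the 3 control (blue) and 3 mutant (red) libraries, 1 point per library from 1 to 3 left to right, with the mean and SD in black. The mutant points lie below the control points in Dll1, Jag1, Lfng, Notch1, Hes1, Hes5 and Hey1 and above them in Notch2 and Notch3, while in Notch4 mut1 lies above and the other mutant points below the control points.

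Of the ligand genes, Dll1 fell the most and Jag1 fell less. Dll1 (chromosome 17, 15367354 to 15376872, minus strand, mm10, GENCODE M21) encodes Delta-like 1, a ligand made in the renal vesicle and in the early nephron. Its coverage was 68.8, 65.4 and 59.6 kb in con1 to con3 and 19.0, 22.9 and 21.1 kb in mut1 to mut3. All 3 mutant kidneys were well below all 3 control kidneys, and the mutant mean was 32.5% of the control mean. The mean went from 64.6 ± 4.63 to 20.99 ± 1.91 kb (n = 3 each), a 3.08-fold fall (log2 fold change -1.62, SE 0.11, limma adjusted p = 1.58e-06). In a whole organ, fewer cells that make a transcript and less of it per cell cannot be told apart, and this holds for every gene below.

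Jag1 (chromosome 2, 137081456 to 137116644, minus strand) encodes Jagged 1, a ligand made in the renal vesicle, in vessels and in the ureteric epithelium. Coverage of Jag1 reached 352, 322 and 308 kb in con1 to con3 and 187, 202 and 178 kb in mut1 to mut3. The groups did not overlap, and the lowest control kidney was still well above the highest mutant kidney. The mean went from 327 ± 22.6 to 189 ± 12.3 kb, a 1.73-fold fall (-0.79, SE 0.08, limma adjusted p = 2.65e-05). Because Dll1 fell further, the ratio of Jag1 to Dll1 coverage per exon base was higher in every mutant library. The ratio was 3.71, 3.56 and 3.74 in the control libraries and 7.13, 6.41 and 6.11 in the mutant libraries (exact permutation test, two-sided, p = 0.1, the smallest possible).

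No other measured ligand gene passed the test downward. Dll4, a ligand gene of endothelium, was at 46.2, 49.3 and 66.3 kb in control and 55.1, 51.5 and 61.3 kb in mutant libraries, with overlapping groups (log2 fold change 0.07, SE 0.14, limma adjusted p = 0.712). Jag2 was at 19.5 ± 1.68 and 22.4 ± 2.21 kb, again with overlapping groups and no pass (0.20, SE 0.13). Dlk1, whose product is related to Delta but lacks the domain by which ligands activate Notch, rose from 9.45 ± 1.81 to 21.9 ± 2.14 kb (1.23, SE 0.17, limma adjusted p = 0.000167). Dll3 and Dlk2 were not analysed here. Of the coverage per exon base summed over Dll1, Dll4, Jag1 and Jag2, Dll1 held 17.3 ± 0.996% in control and 9.01 ± 0.65% in mutant kidneys, and Dll4 held 15.9 ± 3.43% and 26.4 ± 2.86%. Neither of these shares overlapped between the groups (exact p = 0.1 each), whereas the share of Jag1, at 63.6 ± 2.74% and 58.8 ± 2.51%, did overlap (exact p = 0.2). The small share of Jag2 was higher in every mutant library, at 3.17 ± 0.26% and 5.84 ± 0.59% (exact p = 0.1). These shares add up to a fixed total and so are not separate results, and the coverage of Dll4 and of Jag2 itself overlapped between the groups.

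Lfng (chromosome 5, 140607320 to 140615545, plus strand) encodes Lunatic fringe, which extends the sugars on Notch and favours its response to Delta ligands. Its coverage was 81.7, 84.4 and 76.8 kb in control and 40.5, 43.3 and 34.2 kb in mutant libraries. The control kidneys lay close together and all mutant kidneys were far below them. The mean went from 80.97 ± 3.89 to 39.3 ± 4.67 kb, a 2.07-fold fall (-1.05, SE 0.11, limma adjusted p = 2.07e-05). Neither paralogue passed the test downward: Mfng, which encodes Manic fringe, rose from 18.7 ± 0.894 to 25.0 ± 3.01 kb (0.41, SE 0.13, limma adjusted p = 0.0247), and Rfng, for Radical fringe, was at 17.9 ± 2.70 and 19.7 ± 1.92 kb (0.14, SE 0.15). The call of Mfng was lost without con2, con3, mut1 or mut2, at adjusted p up to 0.0774 (lowest value 0.00994 over its alternatives). Pofut1 and Poglut1, whose products add the first sugars to the receptor, did not pass.

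These ligand and Fringe genes fell in the same libraries in which genes of the nephron lineage were lower. By the same test 24.6% of all 13203 genes fell and 21.5% rose. Of 8 listed genes of nephron progenitors 6 fell and 2 rose, and their summed coverage was 238 to 273 kb in control and 165 to 207 kb in mutant libraries. Of 8 measured genes of the renal vesicle and early nephron 7 fell and 1 rose, with sums of 989 to 1111 and 601 to 629 kb. All 9 podocyte genes fell, with sums of 1190 to 1316 and 457 to 538 kb, and all 9 proximal tubule genes fell, with sums of 4031 to 5005 and 891 to 1127 kb. The part of these cell types in the values of Dll1, Jag1 and Lfng, and in those of the target genes below, was not tested.

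The 4 receptor genes did not share a direction. Notch2 (chromosome 3, 98013527 to 98150361, plus strand), the receptor gene needed for the proximal nephron, was at 559, 586 and 507 kb in control and 778, 738 and 645 kb in mutant libraries. The lowest mutant kidney was above the highest control kidney, by less than the spread within the mutant group. Its mean went from 551 ± 39.7 to 721 ± 68.6 kb, a 1.31-fold rise (0.39, SE 0.09, limma adjusted p = 0.00518). Notch3 (chromosome 17, 32120820 to 32166852, minus strand), the receptor gene of vascular smooth muscle and pericytes, was at 197, 210 and 190 kb in control and 370, 302 and 327 kb in mutant libraries. The groups were wide apart. Its mean went from 199 ± 10.4 to 333 ± 34.5 kb, a 1.67-fold rise (0.74, SE 0.09, limma adjusted p = 6.64e-05).

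Notch1 (chromosome 2, 26457903 to 26516663, minus strand), a receptor gene used in nephrons and in vessels, was at 412, 426 and 419 kb in control and 393, 397 and 377 kb in mutant libraries. All mutant values were below all control values, but the shift was small. The mean was 419 ± 6.98 kb in control and 389 ± 10.9 kb in mutant kidneys and did not pass (-0.11, SE 0.07, limma adjusted p = 0.243). It passed with the trend of coverage on exon length removed, where the log2 fold change was -0.20 and adjusted p = 0.0371 (0.0371 to 0.446 among its alternatives). In the authors' own test the deposited q-value of Notch1 was 0.0157, which is under 0.05. Notch4 (chromosome 17, 34564268 to 34588503, plus strand), the endothelial receptor gene, was at 49.0, 46.4 and 45.3 kb in control and 50.1, 41.5 and 40.1 kb in mutant libraries. The groups overlapped, mut1 being the highest of all 6 libraries, and the gene did not pass (-0.10, SE 0.11, limma adjusted p = 0.482; exact p = 0.4).

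Markers of the cells known for Notch3 and Notch4, and markers of stroma, moved as follows. Of 9 genes of mural cells and smooth muscle 6 rose and 3 did not pass, and their summed coverage was 1066 to 1178 kb in control and 1542 to 1906 kb in mutant libraries. All 9 stromal genes rose, with sums of 1569 to 1685 and 4272 to 4988 kb. Among 13 genes of endothelium, 4 passed the test upward and 1 downward, so that 38.5% passed, against 46.1% of all genes. Their sums were 1366 to 1428 kb in control and 1596 to 1624 kb in mutant libraries. The part of these cells in the values of Notch2, Notch3 and Notch4 was not tested.

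Per length, Notch2 held the most coverage among the receptors in both groups. Of the coverage per exon base summed over the 4 receptors, Notch2 held 46.0 ± 1.24% in control and 47.4 ± 1.94% in mutant kidneys, and the groups overlapped (exact p = 0.4). Notch3 held 21.9, 22.4 and 22.2% in control and 30.2, 26.9 and 30.7% in mutant libraries. Notch1 held 26.0, 25.8 and 27.9% in control and 18.2, 20.1 and 20.1% in mutant libraries. Per exon base, Notch3 thus lay below Notch1 in each control library and above it in each mutant library. The share of Notch4 was lower in every mutant library, at 5.25 ± 0.26% in control and 3.86 ± 0.21% in mutant kidneys. The shares add up to a fixed total and so are not separate results, and the coverage of Notch4 itself overlapped between the groups. The shares of Notch1, Notch3 and Notch4 did not overlap between groups (exact permutation test, two-sided, p = 0.1 for each, the smallest possible). The annotated exons of Notch1 sum to 14.232 kb and its longest transcript to 9488 bases. With the longest transcripts as lengths, Notch1 held 34.4 ± 1.32% in control and 26.0 ± 1.36% in mutant kidneys. Notch3 then held 19.3 ± 0.24% and 26.3 ± 1.90%, so that the mutant means of both lay within their spread. On those lengths Notch3 was below Notch1 in mut2, at 24.1 against 26.8%, and above it in mut1 and mut3.

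**Figure D2:**
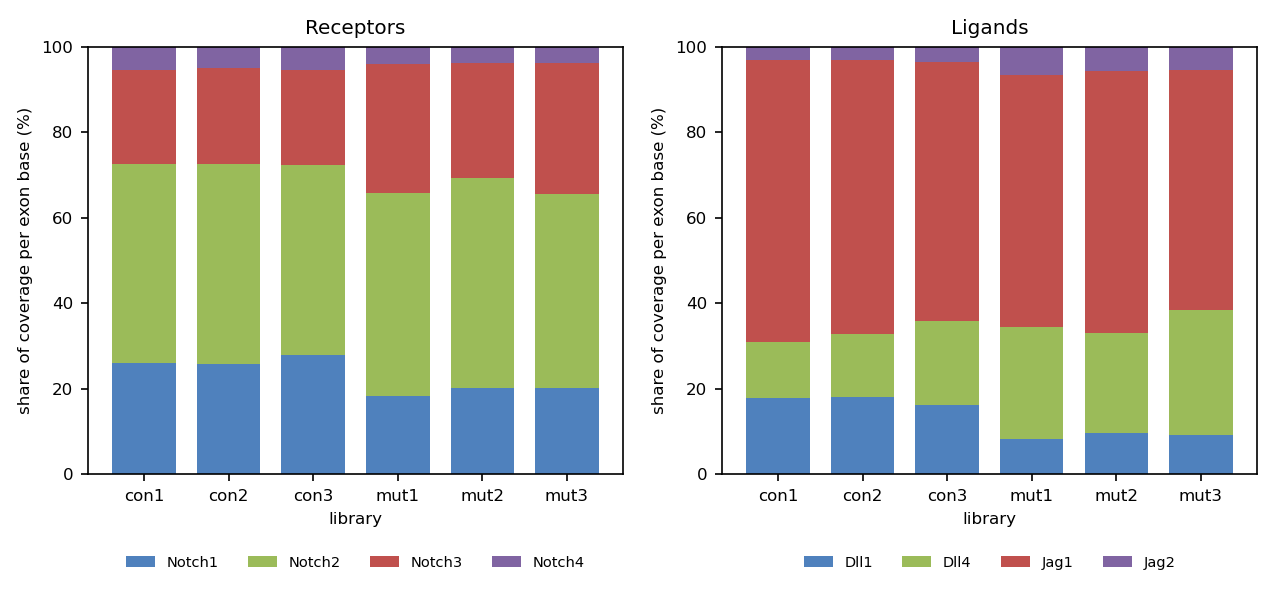
Share of coverage per exon base (%, y axis) held by each of 4 Notch receptor genes (left) and 4 ligand genes (right) in each library (x axis), stacked to 100%. The band of Notch3 is wider and that of Notch1 narrower in the 3 mutant libraries, and the band of Dll1 is narrower and that of Dll4 wider.

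All 3 target genes fell, and Hes5 fell the most of the 10 Notch genes. Hes5 (chromosome 4, 154960923 to 154962371, plus strand), a gene for a basic helix-loop-helix repressor made in the developing nephron under Notch control, was at 8.18, 9.14 and 4.37 kb in control and 1.02, 1.74 and 1.27 kb in mutant libraries. The control kidneys were widely spread, yet the lowest of them was above every mutant kidney. The mean went from 7.23 ± 2.52 to 1.34 ± 0.369 kb, a 5.25-fold fall (-2.39, SE 0.38, limma adjusted p = 0.000418). The fold was smaller with a pseudocount of 1000 in place of 1, at a log2 fold change of -1.77 (adjusted p = 0.000305). Hes5 was the least covered of the 10 genes, with 0.972 to 2.16 kb of sequence before scaling in the mutant libraries and 5.04 to 6.92 kb in control. The table holds genes with a group mean above 3400 units, or 3.4 kb, in at least 1 group, and Hes5 is there through its control mean alone. A gene at its mutant level could be there only if it was higher in control. The fall of Hes5, and the counts that include it, carry this selection. Hes5 is also a gene of neural progenitors. Of 9 listed neuron genes 3 were measured, of which 1 rose and 0 fell, so that 33.3% passed, against 46.1% of all genes. Their summed coverage was 12.0 to 20.5 kb in control and 16.5 to 19.8 kb in mutant libraries. The part of such cells in the values of Hes5 was not tested.

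Hey1 (chromosome 3, 8663359 to 8667256, minus strand), a gene for a related repressor active in vessels and nephrons, was at 54.7, 55.8 and 62.3 kb in control and 27.1, 31.5 and 29.2 kb in mutant libraries. The groups were far apart and each was narrow. The mean went from 57.6 ± 4.07 to 29.3 ± 2.20 kb, a 1.97-fold fall (-0.98, SE 0.11, limma adjusted p = 3.15e-05). Hes1 (chromosome 16, 30064384 to 30067796, plus strand), a repressor gene that other signals also induce, was at 45.8, 37.9 and 43.5 kb in control and 34.3, 29.2 and 32.1 kb in mutant libraries. The groups did not overlap, but the lowest control kidney, con2, was close to the highest mutant kidney, mut1. The mean went from 42.4 ± 4.05 to 31.8 ± 2.57 kb, a 1.33-fold fall (-0.41, SE 0.12, limma adjusted p = 0.0130). That call was lost without con1, where the log2 fold change was -0.35 and adjusted p = 0.0649 (0.00912 to 0.0649 among its alternatives).

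Among other listed targets Nrarp fell, and Hes6, Hey2 and Heyl did not pass. Nrarp, whose product binds the Notch complex and dampens it, was at 44.6, 52.0 and 46.1 kb in control and 36.3, 33.1 and 34.6 kb in mutant libraries, with no overlap (-0.45, SE 0.11, limma adjusted p = 0.00460). An antisense gene overlaps 79.4% of its exon length, and the use of strand in counting is not given in the sources used here. Heyl was at 75.2 ± 5.93 and 63.0 ± 7.59 kb (-0.26, SE 0.11, limma adjusted p = 0.0768), and passed with array weights (0.0260) and without mut1 (0.0419), over a range to 0.273. Hes6 was at 33.9 ± 2.58 and 26.9 ± 5.16 kb (-0.35, SE 0.14, limma adjusted p = 0.0669), and passed with array weights (0.0279), without mut1 (0.00821) and without small RNA and hemoglobin genes (0.0499), over a range to 0.203. Hey2 was at 12.2 ± 1.91 and 8.87 ± 2.96 kb (-0.50, SE 0.23, limma adjusted p = 0.0996), and passed without mut2 (0.0115), over a range to 0.282. The 7 measured targets had a median log2 fold change of -0.45, against -0.03 over all genes. By limma 4 fell, 0 rose and 3 did not pass, so that 57.1% passed, against 46.1% of all genes (21.5% rose and 24.6% fell). Of those that fell, Hes1, Hes5 and Hey1 are among the 10 Notch genes and Nrarp is not. Of the 10 listed, Hes2, Hes3 and Hes7 were not analysed here.

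RBPJ binds DNA at sites with the core TGGGAA, so this motif was looked for on both strands of the promoter windows (250 bases before to 50 after a gene start) that RefSeq gives on GRCm38.p6, the build of mm10. Windows were given for 8 of the 10 Notch genes, and none for the target genes Hes1 and Hey1, which were thus not examined. Of the 8, Lfng and Hes5 held the motif and the 6 ligand and receptor genes did not. This share is close to that over all windows. The motif stood at least 1 time in 25.6% of all 32851 windows of the same length and at least 2 times in 3.79% of them. Lfng and Hes5 each held it 2 times, with 1 match on each strand. The windows are printed because these are the 2 Notch genes with a match, in the direction of the gene and with the matches (TGGGAA, or TTCCCA where it lies on the other strand) in capitals.
Hes5 (chr4:154960673-154960972, plus strand): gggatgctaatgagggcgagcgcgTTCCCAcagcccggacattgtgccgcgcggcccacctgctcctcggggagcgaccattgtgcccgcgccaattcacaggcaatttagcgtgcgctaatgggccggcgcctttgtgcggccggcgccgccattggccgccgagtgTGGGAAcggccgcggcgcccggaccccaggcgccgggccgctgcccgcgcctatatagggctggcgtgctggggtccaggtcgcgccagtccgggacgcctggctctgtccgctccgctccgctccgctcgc
Lfng (chr5:140607091-140607390, plus strand): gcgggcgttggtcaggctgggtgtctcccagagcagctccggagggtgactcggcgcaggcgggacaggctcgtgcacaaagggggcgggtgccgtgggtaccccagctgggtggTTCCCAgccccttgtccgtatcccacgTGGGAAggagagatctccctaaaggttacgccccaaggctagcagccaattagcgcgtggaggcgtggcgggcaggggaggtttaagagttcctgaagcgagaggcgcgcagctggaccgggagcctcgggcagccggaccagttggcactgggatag
In Hes5 the matches begin at bases -226 and -82 from the start, and in Lfng at -135 and -108. Hey2, which did not pass, also held 2 matches. Nrarp, which fell, held 0 in its 300-base window. A match describes the letters of a window and was not tested as a site of binding.

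**Figure D3:**
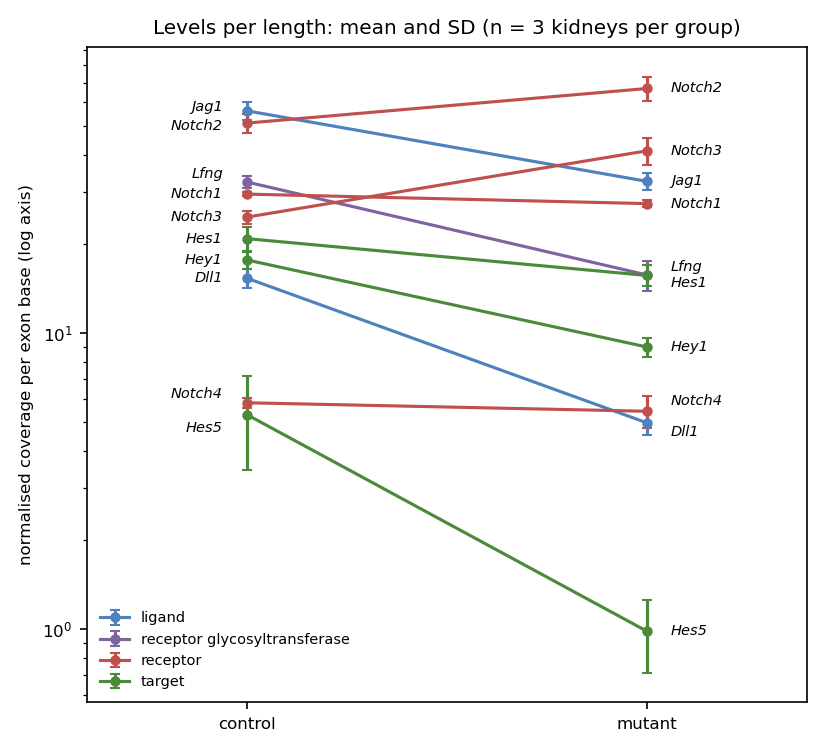
Normalised coverage per exon base (log y axis) of the 10 Notch genes in control and mutant kidneys, as mean and SD of 3 kidneys, coloured by role. The lines of Notch2 and Notch3 go up and those of the ligand, Fringe and target genes go down, so that Notch3 at 41.2 lies above Jag1 at 32.5 in the mutant kidneys.

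On the scale of coverage per exon base, the order of the 10 genes changed between the groups. In control kidneys Jag1 was the highest at 56.2 ± 3.89, followed by Notch2 at 51.1 ± 3.68, and the libraries of these neighbours overlapped. Lfng (32.3 ± 1.55), Notch1 (29.4 ± 0.49), Notch3 (24.6 ± 1.29) and Hes1 (20.8 ± 1.99) followed without overlap between neighbours. Hes1 overlapped with Hey1 (17.6 ± 1.25), which was above Dll1 (15.3 ± 1.10). Notch4 (5.82 ± 0.23) and Hes5 (5.30 ± 1.85) were the lowest and overlapped. In mutant kidneys Notch2 (66.8 ± 6.36) and Notch3 (41.2 ± 4.26) came first, and Jag1 (32.5 ± 2.11) was next. Notch1 (27.3 ± 0.76), Lfng (15.7 ± 1.86), Hes1 (15.6 ± 1.26) and Hey1 (8.97 ± 0.68) followed, of which only Lfng and Hes1 overlapped as neighbours. Notch4 (5.44 ± 0.68) overlapped with Dll1 (4.98 ± 0.45), and Hes5 was the lowest at 0.986 ± 0.27. These levels depend on the length used, for Notch1 in particular, whose longest transcript is much shorter than its annotated exons together.

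Of 63 genes in a list of the wider pathway, which includes the 10, 58 were measured, of which 18 rose, 10 fell and 30 did not pass. Without the 10 Notch genes 16 rose and 4 fell of 48, which is 41.7%, against 46.1% of all genes (21.5% rose and 24.6% fell), with a median log2 fold change of 0.15. Of 15 genes of the nuclear complex and its corepressors 9 rose, 1 fell and 5 did not pass, so that 66.7% passed, with a median of 0.29. Rbpj, the DNA-binding partner of the receptor, was at 51.0, 51.7 and 41.8 kb in control and 62.7, 76.6 and 64.3 kb in mutant libraries. All its mutant values were above its control values, a 1.41-fold rise (0.50, SE 0.12, limma adjusted p = 0.00523). Tle3, a Groucho-type corepressor gene that works with Hes proteins, rose from 206 ± 10.9 to 293 ± 27.6 kb (0.51, SE 0.09). Of the Maml coactivator genes, Maml1 rose (0.34, SE 0.09) and Maml2 rose close to the threshold (0.32, SE 0.12, limma adjusted p = 0.0429). Maml3 did not pass (0.17, SE 0.09, limma adjusted p = 0.138). The coactivator genes Ep300 (0.29, SE 0.08) and Crebbp (0.38, SE 0.10) rose too. Snw1, whose product sits in the same complex and in the spliceosome, fell from 59.5 ± 6.47 to 45.4 ± 1.02 kb (-0.38, SE 0.10, limma adjusted p = 0.0106). That call was lost without con1 (adjusted p = 0.0638, range 0.00723 to 0.0638), and 44.2% of the exon length of Snw1 overlaps Slirp on the other strand.

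Of 13 genes of endocytosis and turnover 4 rose, 0 fell and 9 did not pass by limma, so that 30.8% passed, against 46.1% of all genes. Numbl, a relative of the Notch antagonist gene Numb, was at 24.1, 24.8 and 22.6 kb in control and 50.6, 37.3 and 47.4 kb in mutant libraries, a 1.88-fold rise (0.91, SE 0.13, limma adjusted p = 0.000207). Numb itself did not pass (0.18, SE 0.10). Neurl1a, a ubiquitin ligase gene, rose from 11.6 ± 0.907 to 21.1 ± 1.83 kb (0.86, SE 0.14), and Dtx4, a Deltex ubiquitin ligase gene, from 63.4 ± 3.003 to 105 ± 12.5 kb (0.72, SE 0.10). Of 9 genes of receptor cleavage 1 rose, 2 fell and 6 did not pass, so that 33.3% passed, against 46.1% of all genes. The sheddase genes Adam10 and Adam17 did not pass. Ncstn, for the subunit nicastrin, rose from 121 ± 3.78 to 152 ± 8.65 kb (0.33, SE 0.08). Psenen, for the smallest γ-secretase subunit, fell from 11.9 ± 1.43 to 6.76 ± 1.76 kb (-0.83, SE 0.22). Aph1c fell too (-0.65, SE 0.20, limma adjusted p = 0.0199), but reads may have been split with its near-identical copy Aph1b, which makes its value uncertain, and its call was lost without con1, con3 or mut1 (adjusted p up to 0.0759, lowest value 0.0121).

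**Figure D4:**
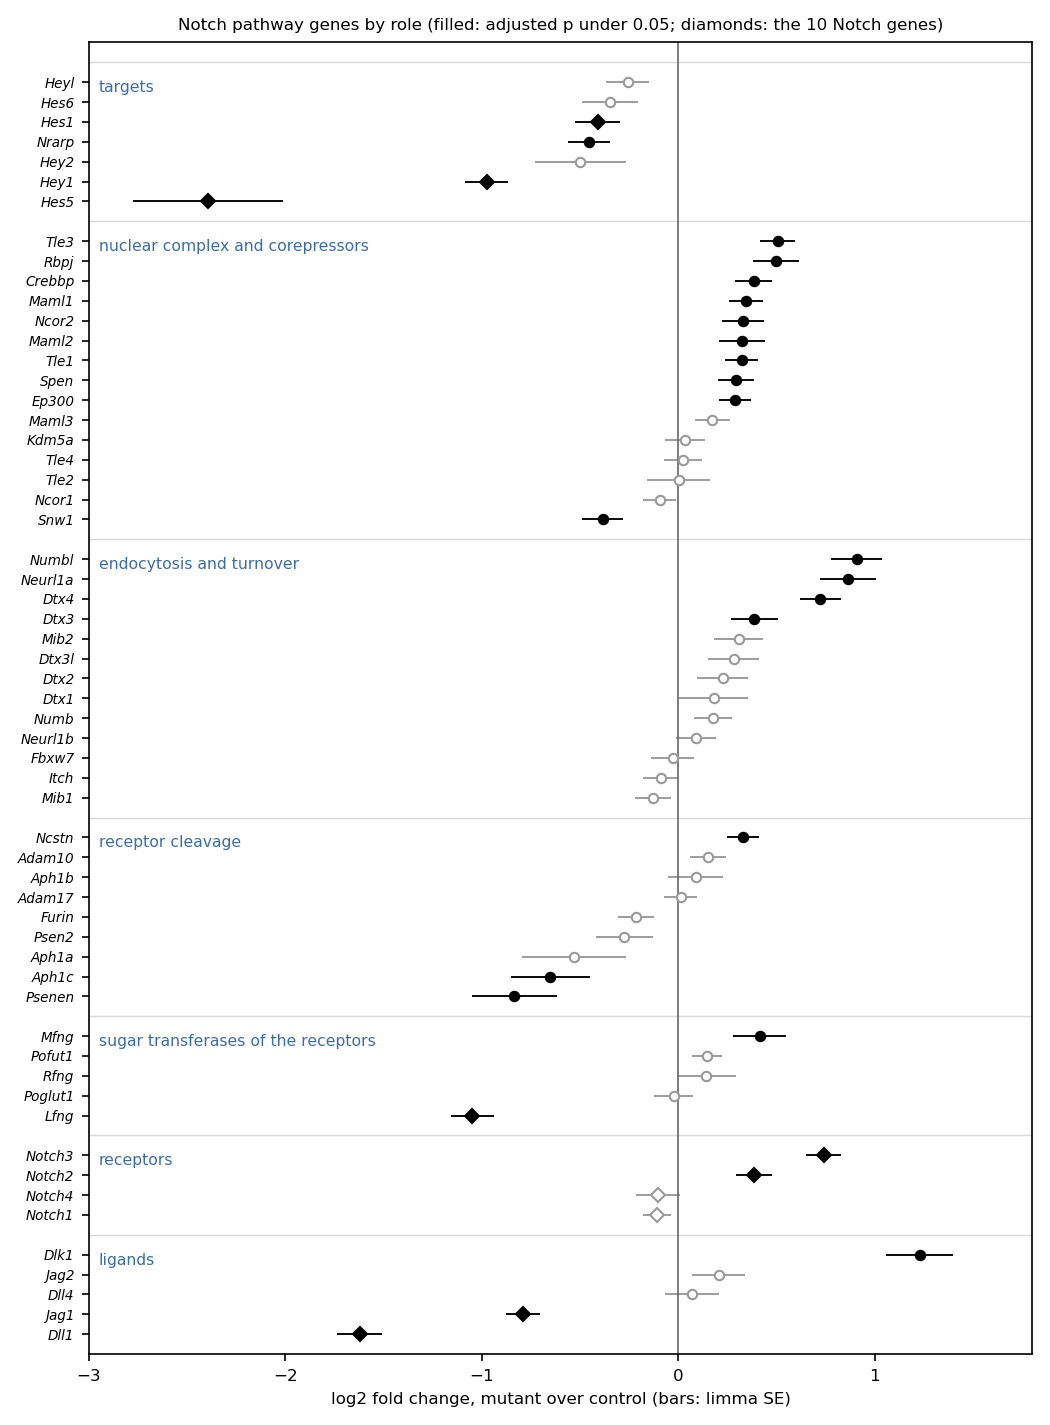
Log2 fold change of mutant over control (x axis, bars give the limma SE) for the 58 measured genes of the Notch pathway list, grouped by role. The targets all lie left of 0, and 4 of 7 are filled, meaning past the threshold. Of the 15 genes of the nuclear complex and corepressors, 9 are filled on the right and 1 on the left.

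In the authors' deposited table the mutant to control ratio was 0.325 for Dll1, 0.486 for Lfng and 0.186 for Hes5, and these 3 genes stand in the authors' deposited list of 780 lower genes. Hey1, at a ratio of 0.508 in the authors' deposited table, lies just outside the limit of 0.5 for that list. None of the 10 genes is among the 725 higher genes listed by the authors; Notch3, at a ratio of 1.67 in the authors' deposited table, is under the limit of 2 for that list. Of the 10 genes, annotated exons of an RNA on the opposite strand overlap 31.8% of the exon length of Hes5 and 20.5% of that of Dll1, and 1 such RNA overlaps 7.504% of Notch1 and another 6.03% of Notch3.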

How the data were processed

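Total RNA of 3 kidneys per genotype was depleted of ribosomal RNA and made into barcoded Ion Total RNA-seq libraries, per the labels' protocols. The submitters' processing notes name mm10 and bedtools; the aligner, annotation and use of strand are not given in the sources used here. Per gene, the authors deposited a coverage signal with group means, a ratio, a p-value and a q-value. Low signal values were whole multiples of a step in each library (139 to 364 values below 2000 steps, tolerance 0.02) and totals were nearly equal, so the deposited coverage signal was read as bases per gene scaled to a common total. Bases are not reads, so a count test does not apply and no interval for counting error can be given. The deposited ratio divides the authors' mutant mean by their control mean. The table holds genes with a group mean above 3400 units, and genes with both means lower were not analysed here.

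Columns name the group but not the animal, so libraries were assigned to groups only and not paired. Where the labels do not say that kidneys came from separate embryos, p-values measure only the spread between these samples. Values were tested as log2(value + 1) with limma 3.58.1 in R 4.3.3, with a mean-variance trend, and adjusted by Benjamini-Hochberg over 13203 genes; the procedure was tested on simulated data. Exon lengths and coordinates came from GENCODE M21, matched by symbol for 12461 genes and by older symbol for 655. Named genes were the 10 members, up to 3 genes per role of the pathway list with the largest change past the threshold, the other targets, and Smarca4. Other genes with values (Dll4, Jag2, Rfng, Numb, Maml1, Maml2, Maml3, Ep300, Crebbp) or without were named after their values were seen. Some genes of the pathway are not reported here. Members and lists were chosen with earlier results of these data known.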

Additional observations from a re-analysis of the deposited data

How the results depend on the processing

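The 10 Notch genes were refitted with pseudocounts of 100 and 1000, trimmed-mean scaling, quantile normalization, rescaling without small RNA and hemoglobin genes, only genes at or above the median level, no variance trend, array weights, linear values, the exon length trend removed, and without each library in turn. Of 159 such values 157 kept direction and side of the threshold and 0 reversed. Notch1 passed with the length trend removed (-0.20, adjusted p = 0.0371), and the fall of Hes1, which lay between -0.49 and -0.35 without single libraries, did not pass without con1. The smallest fall of Hes1 over all settings was -0.295, with the length trend removed (limma adjusted p = 0.0480). Hes5 lies below the median level and has no value under that filter. The counts of 6 Notch genes that fell and 2 that rose, and those of the wider pathway, stayed within 1.5 times. Over all genes 1547 rose and 1729 fell when only genes at or above the median level were tested, against 2844 and 3243, because fewer genes were tested. With the length of the longest transcript, chosen after seeing the data, the share of Notch1 fell by 8.35 percentage points, and with the union of exons it fell by 7.10. No paired analysis was possible because the groups share no replicate numbers. Depth limits Hes5 the most, whose mutant coverage was 0.972 to 2.16 kb of sequence before scaling.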

Other observations

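The table was searched for the genes whose log2 coverage over the 6 libraries was most like that of Hes5, the Notch gene with the largest change. These were Tfdp1, which encodes a partner of E2F factors in the cell cycle (Pearson r = 0.999), Polr2m (0.998) and Acsl5, which encodes an acyl-CoA synthetase (0.998). The points are 6 libraries in 2 groups, and the values are given as a description. Tfdp1 was at 80.0, 81.9 and 66.8 kb in control and 44.9, 51.9 and 46.3 kb in mutant libraries. Its lowest control library was con3, as for Hes5, which the choice by likeness over the same libraries favours. The log2 fold change of Tfdp1 was -0.67, against -2.39 for Hes5.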
